A study of Mus musculus with 6 samples.

Results

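The non-steroid nuclear receptors of the mouse heart were described in 3 wild-type (WT) mouse hearts and 3 labelled SRAKO, all exposed to isoproterenol for 4 weeks. Isoproterenol is a beta-adrenergic agonist that raises cAMP in heart muscle cells and enlarges the heart. SRA, the steroid receptor RNA activator, is a transcript of Sra1 that binds nuclear receptors and their coregulators. The comparison addresses which cardiac RNAs differ between WT and SRAKO hearts under this stimulus. The members were a list of 30 receptor symbols, each looked up by gene name among the 25901 rows of a table of FPKM, fragment numbers divided by transcript length and by the mapped total of the library. Of these, 29 had a row, 1 each, and Hnf4a was not analysed here. The labels give no strain, age, sex, dose or route, and they do not say which part of Sra1 was removed or in which cells. Hearts without the drug are outside the data used here, and its own effect was not measured. RNA came from the heart as a whole, so that fewer cells of a type and less RNA per cell cannot be told apart.

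Nuclear receptors are transcription factors that bind DNA through paired zinc fingers and, in most cases, a lipid-soluble ligand through a separate pocket. Most non-steroid members read copies of a short half-site, AGGTCA, and many do so as a pair with a retinoid X receptor: the peroxisome proliferator-activated receptors (PPARs), thyroid hormone, retinoic acid, vitamin D and liver X receptors all use that partner. In heart muscle, PPARs and estrogen-related receptors drive genes of fatty acid oxidation and mitochondrial energy supply, thyroid hormone receptors set the myosin and calcium pump programme, and the NR4A receptors are induced within a short time of a cAMP signal.

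The deposited table holds no counts, so the depth behind each value is unknown. Within a genotype, the median SD of log2(FPKM + 1) over all tested rows was 0.13 for rows with a mean FPKM of 1 to 2 and 0.15 for rows of 10 to 30. Sra1 was at an FPKM of 4.40, 6.31 and 4.23 in WT2368, WT2379 and WT2378 and at 1.96, 1.78 and 2.05 in SRAKO2365, SRAKO2371 and SRAKO2372, and this order of hearts is kept below. The SRAKO mean was 38.8% of the WT mean, without overlap (log2 difference -1.01, SE 0.14, adjusted p = 0.258 with limma and Benjamini-Hochberg). Its row joins 5 transcripts of Sra1 with 1 of the neighbour Apbb3. Markers of ventricular muscle were abundant in each heart, with Myl2 between 1188 and 1601 and Myh6 between 2393 and 2745. Rows of ribosomal RNA took 2.46% of summed FPKM in WT2368 and 1.25% in SRAKO2371, against 0.389% to 0.575% in the other 4 hearts. These rows include the mitochondrial mt-Rnr1, at 4548 in WT2368 and 1896 in SRAKO2371 against 879 to 1122 elsewhere. They also include the mitochondrial mt-Rnr2, at 3795 and 1993 against 933 to 1311. The joint row of CT010467.1 and AY036118 was at 6242 and 3003 against 273 to 595. Summed FPKM of 10 fat cell markers was 336 in SRAKO2371 and 139 in SRAKO2372 against 48.3 to 87.4 elsewhere, and 10 atrial markers summed to 8578 in WT2379 against 2562 to 3841 elsewhere. Most of the atrial sum was Nppa, at 6576 in WT2379 against 1651 to 2469 elsewhere and named after its values were seen. The 10 endothelial markers summed to 314 to 344 in WT and 361 to 382 in SRAKO, but 4 were higher and 6 lower by sign, and Ly6c1 alone was without overlap. The 10 macrophage markers summed to 195 to 234 and 236 to 260. Of these 9 were tested, 8 higher and 1 lower by sign, and 1 was higher without overlap. Over all tested rows, 4.28% were higher without overlap. Of the neutrophil markers 5 of 10 were tested, all 5 higher in SRAKO by sign and 2 at an unadjusted p under 0.05 (sums 2.37 to 14.8 in WT and 5.10 to 72.4 in SRAKO). Of the 10 atrial markers 9 were lower by sign and 2 at an unadjusted p under 0.05. At that unadjusted p, 1.9% of all tested rows were higher and 1.56% lower in SRAKO hearts. Limma called 0 markers of these lists after adjustment, and the part of these cell types in the receptor values was not tested.

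Estrogen-related receptor alpha, Esrra, had the highest RNA level of the 29 receptors, with a mean FPKM of 28.4 over the 6 hearts, above 91.4% of the tested rows. Nr4a1 followed at 17.1, Rxrg at 13.7, Thra at 12.4 and Nr1h2 at 11.6. A further 8 receptors had means from 5 to 10 (Rxra, Nr1h3, Rxrb, Nr1d2, Ppara, Ppard, Rarg and Nr0b2), and 8 had means from 1 to 5 (Rara, Nr2f6, Esrrb, Esrrg, Rarb, Nr2f2, Nr4a3 and Rora). The last 8 stayed under 1: Thrb, Vdr, Nr2c1, Nr2f1, Nr4a2, Nr2c2, Nr6a1 and Nr5a2. Esrra exceeded the next receptor in 6 of 6 hearts, while Nr4a1 was above Rxrg in 4 of 6 and Thra above Nr1h2 in 4 of 6. The order between Nr1h3 and Rxrb held in 3 of 6 hearts, and that between Rarg and Nr0b2 in 2 of 6, so these neighbours did not differ beyond their spread. The spread over the 6 hearts was smallest for Rora, with a coefficient of variation of 5.18%, and Nr1h3, with 5.37%. Among the 21 tested receptors it was largest for Esrrb, at 47.6%, and Nr4a1, at 29.8%.

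**Figure D1:**
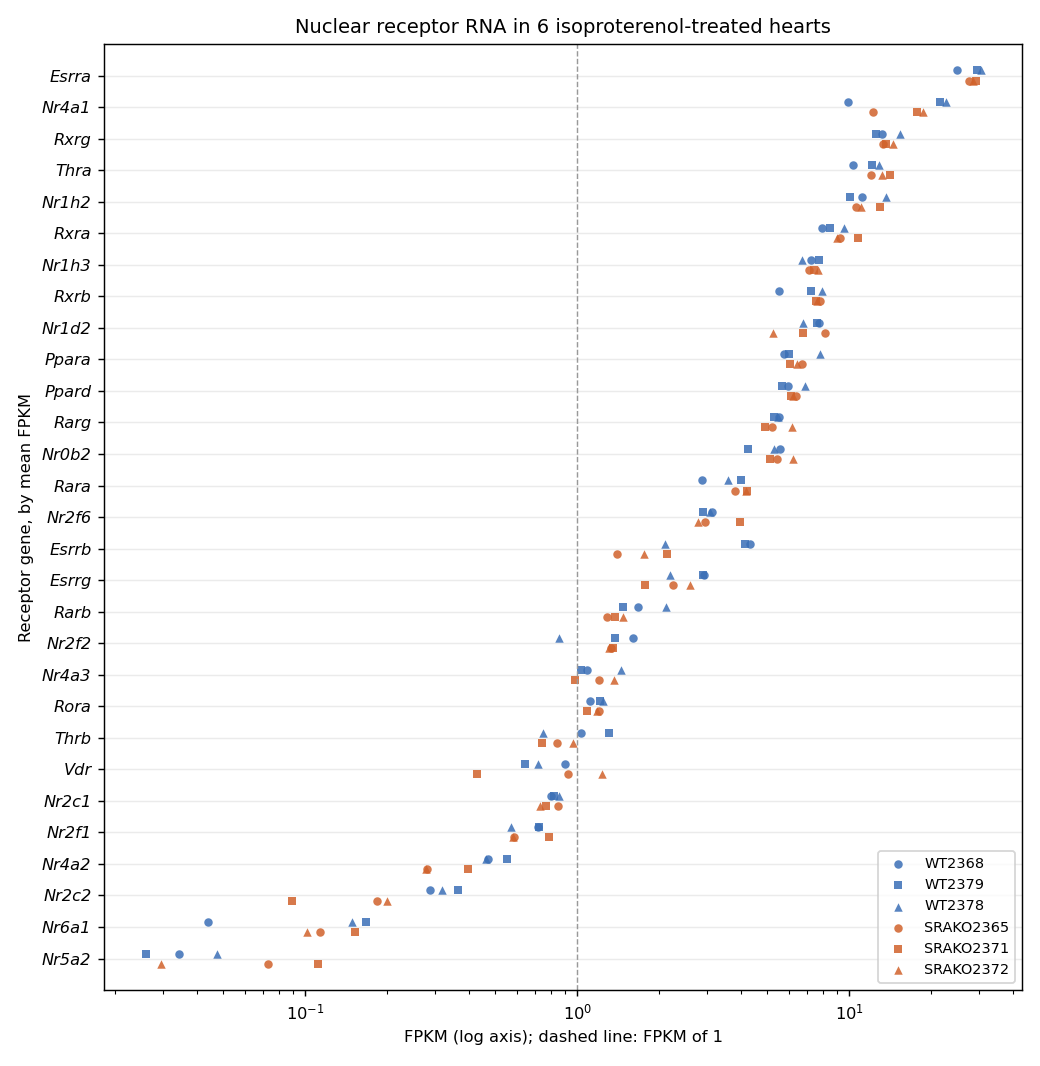
FPKM of the 29 receptor genes (log axis) in each of the 6 hearts, WT in blue and SRAKO in orange, 1 marker per heart, ordered by the mean over hearts. The genotypes are interleaved for nearly all genes, Nr4a2 and Nr2c2 have all SRAKO markers to the left of the WT markers, and 2 WT hearts stand to the right for Esrrb.

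None of the receptors passed the test between genotypes. Where 3 or more hearts reached an FPKM of 1, a row was tested with limma on log2(FPKM + 1), which left 21 receptors. After Benjamini-Hochberg adjustment over all 10201 tested rows, limma called 0 of the 21 (lowest adjusted p = 0.999), against 0.0196% of all rows, which are the 2 rows Apc and Pafah1b1, named here after their values were seen. At an unadjusted p under 0.05 there was 1 receptor, Esrrb, 4.76% of those tested, and the share over all rows was 3.46% (1.56% lower and 1.9% higher in SRAKO). By sign alone 12 receptors were higher and 9 lower in SRAKO hearts, and 53.5% of all rows were higher. Their median difference was 0.01 on the log2 scale, and the median over all tested rows was also 0.01. In 20 of the 21 the difference was under 0.25 in size, as it was in 90.7% of all rows. The 95% interval lay within 0.5 of 0 for 18 of the 21, the exceptions being Esrrb, Esrrg and Nr4a1. No tested receptor had genotypes without overlap (0 of 21; 8.05% of all rows). WT hearts had a summed FPKM over the 29 receptors of 159 ± 14.2, and SRAKO hearts one of 158 ± 6.31 (SD, n = 3 per genotype; exact two-sided permutation p = 0.9). With 3 hearts against 3 an exact permutation test cannot go below 0.1. Nothing in the labels says that the hearts came from separate animals, and the p-values measure the spread between these samples.

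**Figure D2:**
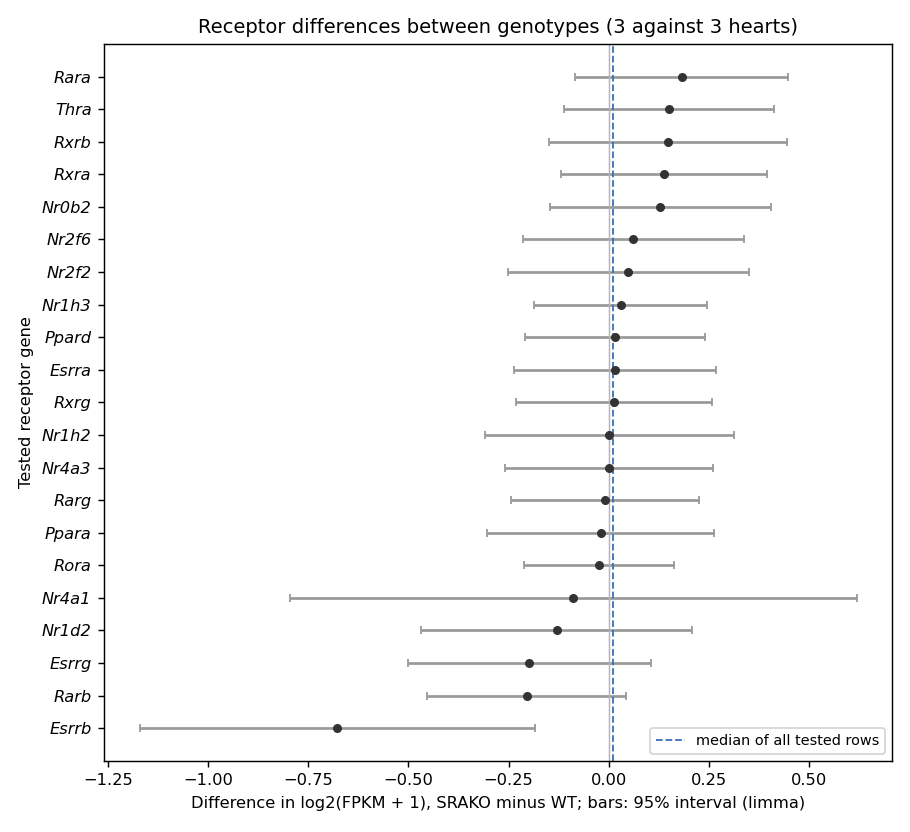
Difference in log2(FPKM + 1), SRAKO minus WT, for the 21 tested receptors, with 95% intervals from limma (3 hearts in each group); the dashed line is the median of all tested rows. The interval of Esrrb, from -1.17 to -0.19, is the one that leaves out 0, before any adjustment for the number of rows.

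The estrogen-related receptors are orphan receptors that bind DNA without a known natural hormone and switch on genes of mitochondrial respiration. Esrrb had the largest difference of the 21 receptors. Its FPKM was 4.33, 4.12 and 2.11 in WT hearts and 1.40, 2.13 and 1.76 in SRAKO hearts. WT2368 and WT2379 were high, while WT2378 lay within the SRAKO range, just under SRAKO2371. The SRAKO mean was 50.1% of the WT mean (1.76 ± 0.364 against 3.52 ± 1.23; SD, n = 3 each). On the log2 scale SRAKO minus WT was -0.68, SE 0.21 (limma, unadjusted p = 0.0133, Benjamini-Hochberg adjusted p = 0.999). Without WT2378 it was -0.93, and without WT2368 it was -0.54 with an unadjusted p of 0.058. On GRCm38 the gene spans bases 86361117 to 86521628 of chromosome 12 (plus strand), and no other annotated exon overlaps its exons. Esrrg, the isotype tied to oxidative muscle and perinatal heart metabolism, was at 2.93, 2.90 and 2.19 in WT hearts and at 2.25, 1.78 and 2.59 in SRAKO hearts. WT2368 and WT2379 were again the highest, and the groups overlapped (log2 difference -0.20, 95% interval -0.50 to 0.11). Esrra was at 24.98, 29.5 and 30.4 and at 27.6, 29.3 and 28.5, a difference of 0.02 with an interval from -0.24 to 0.27. Its row also carries the microRNA Mir6990, and its exons overlap those of Trmt112 on the opposite strand. Esrra gave 77.5% to 88.3% of the summed FPKM of the family, and Esrrb 13.4%, 11.3% and 6.07% of it in WT hearts against 4.48%, 6.41% and 5.35% in SRAKO hearts.

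RefSeq lists 2 start sites for Esrrb on GRCm38.p6. The 250 bases before each are shown because Esrrb was the receptor with the largest difference. Capitals mark TGACG, read on either strand, the half-site of cAMP response elements, which 17.8% of 32851 windows of the same length before RefSeq start sites hold.
Esrrb, first start, chr12:86360867-86361116, plus strand: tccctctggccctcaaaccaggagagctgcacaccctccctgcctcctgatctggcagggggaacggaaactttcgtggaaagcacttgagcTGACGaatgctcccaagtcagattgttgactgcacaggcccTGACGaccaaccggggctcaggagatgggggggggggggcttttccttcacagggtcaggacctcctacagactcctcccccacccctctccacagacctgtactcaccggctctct
Esrrb, second start, chr12:86421394-86421643, plus strand: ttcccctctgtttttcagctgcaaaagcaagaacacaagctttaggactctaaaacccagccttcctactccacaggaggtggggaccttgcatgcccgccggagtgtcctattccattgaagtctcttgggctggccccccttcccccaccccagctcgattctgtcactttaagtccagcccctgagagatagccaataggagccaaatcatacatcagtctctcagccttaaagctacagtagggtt
The first window holds 2 matches and the second 0. The table has 1 row for the gene, so it does not say which start was used.

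Genes that estrogen-related receptors control were tested for all 16 listed members, and limma with Benjamini-Hochberg adjustment called 0 (0 also at an unadjusted p under 0.05). By sign 9 were higher and 7 lower, with a median log2 difference of 0.02. Cytochrome c, Cycs, was at 106, 100.2 and 90.02 in WT hearts and at 99.9, 95.6 and 103 in SRAKO hearts. Idh3a, a subunit of the citric acid cycle enzyme isocitrate dehydrogenase, was at 62.9, 65.3 and 65.3 and at 59.8, 60.9 and 62.9. Perm1, a muscle regulator of mitochondrial genes, was at 59.3, 69.2 and 75.3 and at 66.1, 62.1 and 72.4. The groups overlapped for each of these genes.

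PPAR-alpha and PPAR-delta sense fatty acids and switch on their uptake and oxidation. Both were present at nearly equal levels, Ppara giving 49.1% to 53.3% of their summed FPKM. Ppara was at 5.77, 5.99 and 7.83 in WT hearts and at 6.68, 6.04 and 6.404 in SRAKO hearts. Ppard was at 5.98, 5.67 and 6.86 and at 6.35, 6.10 and 6.23. WT2378 was the highest heart for both, and the 3 SRAKO hearts lay inside the WT range. The log2 differences were -0.02 (95% interval -0.30 to 0.26) and 0.02 (-0.21 to 0.24).

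Of 26 listed PPAR targets 25 were tested, 17 higher and 8 lower by sign with a median of 0.04, and 0 were called by limma after Benjamini-Hochberg adjustment (0 at an unadjusted p under 0.05). Pdk4, the kinase that shuts pyruvate out of the citric acid cycle, was at 75.1, 174 and 150 in WT hearts and at 47.8, 115 and 160 in SRAKO hearts. Angptl4, a secreted inhibitor of lipoprotein lipase, was at 0.962, 1.88 and 2.10 and at 0.816, 3.04 and 1.86. WT2368 and SRAKO2365 were the lowest hearts for both genes. They were also the lowest for Ucp3 (10.9 and 8.02, against 15.3 to 20.3 in the other 4), which was named after its values were seen. Cpt1b, the muscle carnitine palmitoyltransferase, shares its row with Chkb and was at 59.3, 68.7 and 72.3 and at 64.3, 64.96 and 71.5.

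The retinoid X receptors, partners of most receptors above and below, were led by the muscle-enriched isotype Rxrg. Rxrg was at 13.2, 12.5 and 15.3 in WT hearts and at 13.3, 13.6 and 14.4 in SRAKO hearts. Rxra, the isotype required for ventricular growth in the embryo, was at 7.95, 8.49 and 9.59 and at 9.24, 10.7 and 8.98. Rxrb was at 5.51, 7.22 and 7.91 and at 7.79, 7.57 and 7.60. The order Rxrg over Rxra over Rxrb held in 6 of 6 hearts, with Rxrg between 42.6% and 49.5% of their sum. The log2 differences were 0.01 for Rxrg (95% interval -0.23 to 0.26), 0.14 for Rxra (-0.12 to 0.40) and 0.15 for Rxrb (-0.15 to 0.44). Without WT2368 they were 0.08 for Rxra and 0.02 for Rxrb, and without SRAKO2371 that of Rxra was 0.07. WT2368, the heart with the largest share of ribosomal RNA, was the lowest for Rxra and Rxrb. It was the lowest heart for 7 of the 21 tested receptors, and WT2378 was the highest heart for 10 of the 21. WT2368 was also low beyond the receptors. Over 9154 rows its median ratio to the geometric mean of the hearts was 0.911, against 0.997 to 1.04 in the others. With each heart rescaled by its ratio, the log2 differences were 0.125 for Rxra and 0.135 for Rxrb. The part of ribosomal RNA in these values was not tested.

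**Figure D3:**
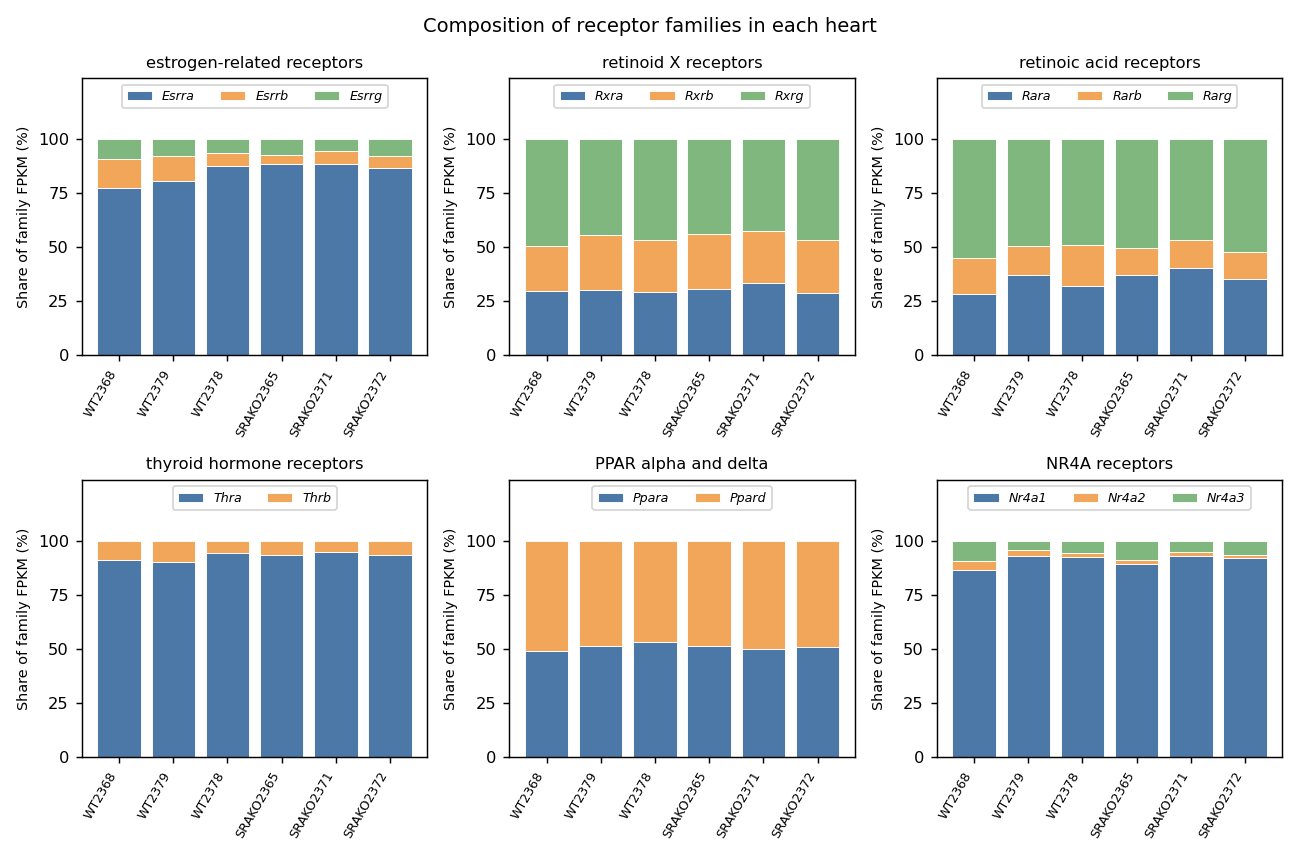
Share of each isotype in the summed FPKM of its family (percent), 1 bar per heart. Rxrg, Thra and Esrra hold the largest share of their families in all 6 hearts, and the Esrrb share is larger in WT2368 (13.4%) and WT2379 (11.3%) than in the other 4 hearts (4.48% to 6.41%).

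Thyroid hormone receptor alpha, Thra, exceeded the beta isotype in 6 of 6 hearts by 9.23-fold to 19.0-fold. Thra was at 10.3, 12.1 and 12.8 in WT hearts and at 12.1, 14.1 and 13.2 in SRAKO hearts, with overlap (log2 difference 0.15, 95% interval -0.11 to 0.41). Leaving out WT2368 gave 0.07, and leaving out SRAKO2371 as well gave 0.02. Thrb, under the filter of the test, was at 1.03, 1.31 and 0.750 and at 0.842, 0.741 and 0.963. Exons of Thra overlap those of the circadian repressor Nr1d1 on the opposite strand by 263 bases on chromosome 11, and without strand in the labels reads of that stretch cannot be told apart. Nr1d1 was at 15.5, 22.5 and 13.9 and at 19.0, 16.5 and 6.17.

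All 15 listed thyroid hormone targets were tested, 11 higher and 4 lower by sign with a median of 0.03, and limma called 0 after Benjamini-Hochberg adjustment. At an unadjusted p under 0.05 there was 1, the potassium channel gene Kcna5 (7.56, 7.203 and 9.66 in WT, 11.4, 9.28 and 11.6 in SRAKO), named after its values were seen. Of all rows, 1.9% were higher and 1.56% lower at that unadjusted p. Myh6, the fast alpha myosin heavy chain, was at 2393, 2683 and 2724 and at 2565, 2522 and 2745. The calcium pump gene Atp2a2 was at 1109, 1503 and 1426 and at 1384, 1291 and 1408, and the pacemaker channel gene Hcn2 at 3.65, 3.51 and 3.96 and at 4.06, 4.56 and 2.89. Of 10 genes that carry or deiodinate thyroid hormone, 4 were tested and 0 were called. The transporter gene Slc16a10 was at 1.81, 2.06 and 1.87 in WT hearts and at 1.81, 1.82 and 2.20 in SRAKO hearts. The amino acid transporter Slc7a5 was at 1.44, 2.61 and 1.94 and at 1.92, 2.01 and 1.54. Slc7a8 was the 1 member at an unadjusted p under 0.05, where 1.9% of all rows were higher. It was at 0.990, 1.38 and 1.55 in WT and 2.05, 2.04 and 2.15 in SRAKO hearts without overlap. Of all rows, 4.28% were higher without overlap.

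The retinoic acid receptors bind all-trans retinoic acid, a hormone made from vitamin A. Rarg, with a mean FPKM of 5.41, was the most abundant in 6 of 6 hearts, followed by Rara and Rarb. Rarb was at 1.68, 1.47 and 2.11 in WT hearts and at 1.29, 1.37 and 1.48 in SRAKO hearts. All SRAKO hearts were low, and SRAKO2372 met WT2379, the lowest WT heart (log2 difference -0.20, SE 0.11, unadjusted p = 0.0933, adjusted p = 0.999 with limma and Benjamini-Hochberg). Without WT2378 the difference was -0.11, and without WT2379 it was -0.28 with an unadjusted p of 0.0396. In the fit without WT2379, 358 of 10201 rows had an unadjusted p under 0.05. Rara was at 2.87, 3.99 and 3.59 and at 3.80, 4.22 and 4.16 (0.18, 95% interval -0.08 to 0.45), and without WT2368 its difference was 0.08. As a share of the 3 receptors, Rarb was 16.7%, 13.7% and 18.9% in WT and 12.5%, 13.1% and 12.6% in SRAKO hearts, without overlap (exact two-sided permutation p = 0.1, adjusted p = 0.682 over the 25 shares computed). Rarg was at 5.51, 5.31 and 5.45 and at 5.19, 4.88 and 6.13. Rarb spans bases 16430839 to 16819156 of chromosome 14 (minus strand), and its exons overlap those of Top2b and Gm48162 on the opposite strand.

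Rarb is itself a textbook target of retinoic acid through a direct repeat in its promoter, which is why that sequence is shown. The capitals mark a match to the half-sites TTCA and AGTTCA with any 5 bases between them, which lies 51 to 37 bases before the RefSeq start.
Rarb, chr14:16575477-16575726, minus strand, GRCm38.p6: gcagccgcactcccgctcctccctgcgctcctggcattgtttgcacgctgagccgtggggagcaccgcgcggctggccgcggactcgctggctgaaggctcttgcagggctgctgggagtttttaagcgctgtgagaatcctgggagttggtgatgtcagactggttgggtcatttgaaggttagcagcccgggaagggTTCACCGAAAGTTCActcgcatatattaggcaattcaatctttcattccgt
On either strand, 30 of the 32851 windows (0.0913%) hold this motif, and of 46 windows before the starts of 29 receptors (Thra was not matched, Hnf4a was) it occurs in that of Rarb alone. The plain half-site AGGTCA occurs in 15.2% of the 46 windows and in 14.02% of all windows.

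Of 17 genes for the uptake, synthesis, binding and breakdown of retinoids or induced by them, 9 were tested, 4 higher and 5 lower by sign with a median of -0.05, and 0 were called by limma after adjustment. The retinaldehyde dehydrogenase gene Aldh1a2 was at 1.02, 1.66 and 1.18 in WT hearts and at 0.940, 0.932 and 1.06 in SRAKO hearts. Aldh1a1, of the same enzyme family, was at 5.31, 4.77 and 4.61 and at 5.60, 5.64 and 6.81, higher in each SRAKO heart (log2 difference 0.25, unadjusted p = 0.0478, adjusted p = 0.999). Of all rows, 4.28% were higher without overlap and 1.9% higher at an unadjusted p under 0.05. The other member at an unadjusted p under 0.05, Rbp4, was at 1.18, 1.19 and 1.60 and at 1.48, 3.58 and 2.06, and its highest heart was SRAKO2371, the heart with the most fat marker RNA. The part of fat tissue in that value was not tested. Cyp26b1, which degrades retinoic acid and is induced by it, was at 1.67, 1.98 and 4.22 and at 0.757, 2.25 and 3.50. WT2378 was the highest heart for both Cyp26b1 and Rarb, and SRAKO2365 the lowest for both. The hearts between them were ordered differently, with WT2368 second lowest for Cyp26b1 and second highest for Rarb. A link between these genes was not tested.

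The liver X receptors sense oxysterols and govern cholesterol export and fatty acid synthesis. The widely expressed Nr1h2 was at 11.1, 10.05 and 13.6 in WT hearts and at 10.6, 13.0 and 11.05 in SRAKO hearts. Nr1h3, the isotype of liver, fat and macrophages, was at 7.23, 7.77 and 6.68 and at 7.12, 7.397 and 7.65, in a row shared with Gm13783. Nr1h2 exceeded Nr1h3 in 6 of 6 hearts. The log2 differences were 0.00 (95% interval -0.31 to 0.31) and 0.03 (-0.19 to 0.24). All 12 listed targets were tested, 9 higher and 3 lower by sign with a median of 0.18, and limma called 0 after adjustment. The sterol exporters Abca1 and Abcg1 were at 2.48, 1.78 and 1.55 against 1.88, 1.79 and 1.83, and at 1.38, 1.62 and 1.55 against 1.51, 1.13 and 1.29. Srebf1, the regulator of fatty acid synthesis, was at 2.53, 4.19 and 3.76 and at 3.72, 4.86 and 4.20. Mylip, the ligase that degrades the LDL receptor, was the 1 target at an unadjusted p under 0.05, at 8.02, 8.23 and 9.13 in WT and 10.8, 10.1 and 10.9 in SRAKO hearts without overlap (log2 difference 0.29, adjusted p = 0.999 with limma). Higher values without overlap were found in 4.28% of all rows, and 1.9% were higher at an unadjusted p under 0.05. Scd1 and Fasn, lipogenic enzymes that fat cells also express, were at 223 and 31.3 in SRAKO2371 against at most 32.7 and 10.9 in any other heart. That heart also held the highest fat marker sum (48.3 to 336 over SRAKO hearts, 53.1 to 87.4 over WT hearts, 8 of 10 markers tested, all 8 higher by sign and 0 at an unadjusted p under 0.05), and the part of fat tissue in the list was not tested.

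The vitamin D receptor gene, Vdr, stayed under the filter at 0.903, 0.641 and 0.719 in WT hearts and at 0.928, 0.426 and 1.23 in SRAKO hearts, and SRAKO hearts gave both the lowest and the highest value. Of the 9 listed genes of vitamin D action 4 were tested, 3 higher and 1 lower by sign, and 0 were called (0 at an unadjusted p under 0.05). Cyp27a1, a mitochondrial sterol hydroxylase, was at 9.41, 7.99 and 10.9 and at 10.998, 11.1 and 12.2, higher in each SRAKO heart. Its unadjusted p with limma was 0.0716, and 4.28% of all rows were higher without overlap. Pdia3 and Thbd were at 30.2, 32.6 and 28.3 against 27.8, 29.3 and 26.7, and at 12.5, 13.8 and 12.3 against 14.9, 13.4 and 13.9.

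REV-ERB beta, encoded by Nr1d2, is a heme-binding repressor of the circadian clock, and ROR alpha is an activator that competes for the same DNA element. Nr1d2 was at 7.72, 7.63 and 6.77 in WT hearts and at 8.16, 6.78 and 5.26 in SRAKO hearts. SRAKO2372 was the lowest heart, and the groups overlapped (log2 difference -0.13, 95% interval -0.47 to 0.21). Without SRAKO2372 the difference was 0.01. Its paralogue Nr1d1 (6.17) and the clock output gene Dbp (5.03, against 13.3 to 19.4 elsewhere) were also lowest in that heart, while the clock activator Arntl, at 0.846 against 0.290 to 0.502, was highest there. Dbp and Arntl were named after their values were seen. The labels give no hour of collection, and its part in these values was not tested. Rora was at 1.12, 1.21 and 1.25 and at 1.20, 1.09 and 1.18 (-0.02, interval -0.21 to 0.16). Of 15 circadian genes 12 were tested, 4 higher and 8 lower by sign, and limma called 0 after adjustment (0 at an unadjusted p under 0.05). The repressors Cry1 and Cry2 were at 2.41, 2.81 and 2.73 against 2.29, 2.42 and 2.93, and at 4.46, 7.001 and 8.07 against 7.28, 7.23 and 7.18.

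**Figure D4:**
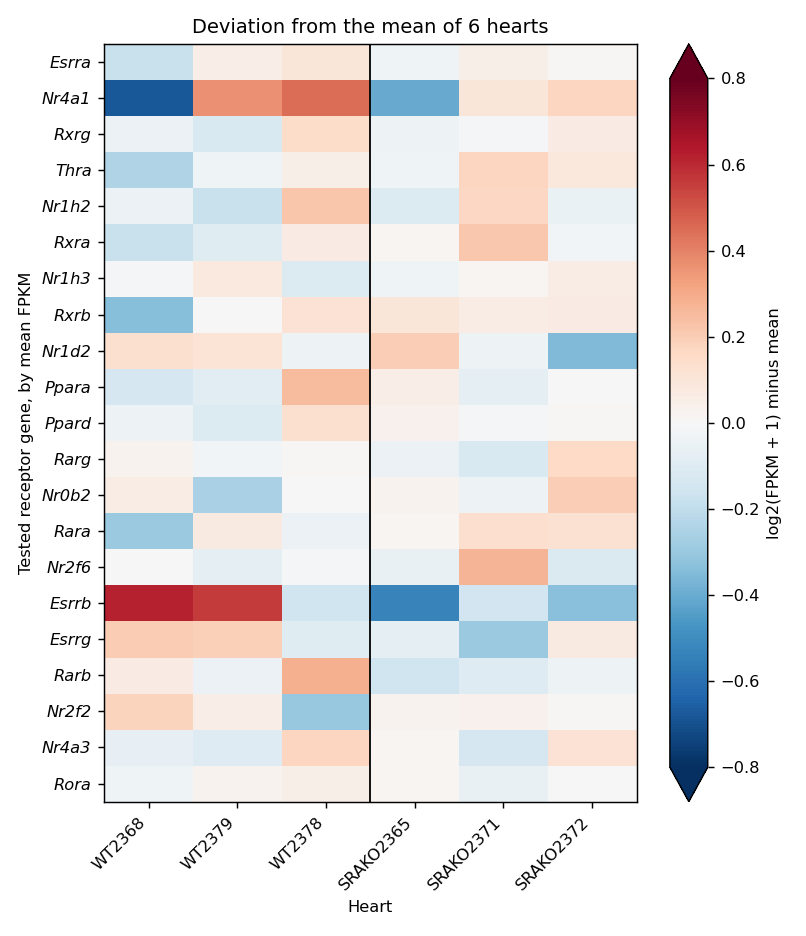
Deviation of log2(FPKM + 1) from the mean of the 6 hearts for the 21 tested receptors, 3 WT hearts left of the black line and 3 SRAKO hearts right of it; red is above and blue below the gene's mean. Esrrb is high in WT2368 and WT2379, Nr4a1 is low in WT2368 and SRAKO2365, and Nr1d2 is low in SRAKO2372.

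The NR4A receptors are immediate early genes that act without a known hormone and are induced by cAMP. Nr4a1 was at 9.87, 21.5 and 22.7 in WT hearts and at 12.2, 17.7 and 18.6 in SRAKO hearts. WT2368 and SRAKO2365 were the low hearts, 1 of each genotype, and the log2 difference of -0.09 had an interval from -0.80 to 0.62. Without WT2368, the heart with the largest share of ribosomal RNA, the difference was -0.45 with an unadjusted p of 0.0464 and an adjusted p of 0.718 (limma, Benjamini-Hochberg), while without WT2378 it was 0.11. Nr4a3 was at 1.08, 1.03 and 1.45 and at 1.21, 0.984 and 1.37 (0.00, interval -0.26 to 0.26). Nr4a2, under the filter, was at 0.469, 0.550 and 0.462 in WT and at 0.280, 0.397 and 0.278 in SRAKO hearts. Each SRAKO heart was below each WT heart, at 64.5% of the WT mean (0.318 ± 0.0682 against 0.494 ± 0.0491; SD, n = 3 each). A fit without the filter gave Nr4a2 an unadjusted p of 0.0253 and an adjusted p of 0.932 (limma, Benjamini-Hochberg over 25901 rows), where 1.67% of rows were lower, and 3.55% lower or higher, at an unadjusted p under 0.05. Nr4a1 gave 86.4% to 93.2% of the summed FPKM of the 3 genes.

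The promoters of the 3 NR4A genes are shown because they share a dense set of cAMP half-sites, and isoproterenol acts through cAMP. Capitals mark TGACG on either strand, so that CGTCA is the same half-site on the other strand.
Nr4a1, chr15:101266596-101266845, plus strand, GRCm38.p6: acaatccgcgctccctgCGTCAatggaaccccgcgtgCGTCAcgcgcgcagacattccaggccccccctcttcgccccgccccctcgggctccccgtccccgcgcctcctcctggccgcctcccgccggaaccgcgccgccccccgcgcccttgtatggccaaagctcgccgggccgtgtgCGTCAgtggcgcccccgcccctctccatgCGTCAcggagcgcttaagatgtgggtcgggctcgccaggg
Nr4a2, chr2:57124004-57124253, minus strand, GRCm38.p6: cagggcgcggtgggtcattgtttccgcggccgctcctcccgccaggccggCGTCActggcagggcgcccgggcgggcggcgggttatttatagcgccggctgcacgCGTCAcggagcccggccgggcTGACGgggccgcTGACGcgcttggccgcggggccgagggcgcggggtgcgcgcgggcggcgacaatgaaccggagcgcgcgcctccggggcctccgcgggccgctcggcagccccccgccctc
Nr4a3, chr4:48045055-48045304, plus strand, GRCm38.p6: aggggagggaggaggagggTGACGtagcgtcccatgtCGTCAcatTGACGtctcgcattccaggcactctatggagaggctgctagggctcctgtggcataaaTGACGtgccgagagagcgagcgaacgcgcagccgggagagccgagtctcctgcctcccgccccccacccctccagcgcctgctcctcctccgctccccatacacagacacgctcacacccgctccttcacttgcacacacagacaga
Each window holds 4 matches. Of the 32851 windows 45 (0.137%) hold at least 4, and of the 29 receptors matched these are the only 3. The cutoff of 4 equals the number of matches in these windows, so the share describes them and is not a test. Whether the half-sites act in these hearts was not tested. The palindrome TGACGTCA was in none of the 46 receptor windows and in 1.55% of all windows.

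Of 13 immediate early genes 9 were tested, 6 higher and 3 lower by sign with a median of 0.25, and limma called 0 after adjustment. Fos was at 1.55, 3.32 and 1.301 in WT hearts and at 4.45, 2.08 and 6.35 in SRAKO hearts, and Egr1 at 2.51, 15.4 and 5.53 and at 11.6, 9.25 and 19.7. Of the 2 low hearts for Nr4a1, WT2368 was the lowest for Egr1 and the second lowest for Fos, and SRAKO2365 was the third highest for Egr1 and the second highest for Fos. Atf3, a stress-induced repressor, was the 1 member at an unadjusted p under 0.05, at 1.69, 8.65 and 4.50 and at 1.54, 2.30 and 1.08 (log2 difference -1.01, adjusted p = 0.999).

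The COUP transcription factors Nr2f1 and Nr2f2 mark atrial muscle, veins and lymphatics, and Nr2f6 is a broadly expressed relative. Nr2f6 was at 3.12, 2.89 and 3.08 in WT hearts and at 2.94, 3.97 and 2.79 in SRAKO hearts, with exons that overlap Ocel1 on the opposite strand. Nr2f2 was at 1.60, 1.38 and 0.858 and at 1.33, 1.35 and 1.31, so that the SRAKO hearts lay inside the WT range. Nr2f1, under the filter, was at 0.716, 0.722 and 0.570 and at 0.587, 0.785 and 0.583. The order Nr2f6 over Nr2f2 over Nr2f1 held in 6 of 6 hearts.

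The testicular receptors Nr2c1 and Nr2c2 are orphan receptors that form pairs with each other and repress direct-repeat elements. Both were under the filter. Nr2c2 was at 0.288, 0.364 and 0.320 in WT hearts and at 0.183, 0.0894 and 0.200 in SRAKO hearts, each SRAKO heart below each WT heart, at 48.7% of the WT mean. The fit without the filter gave Nr2c2 an unadjusted p of 0.00844 and an adjusted p of 0.932 (limma, Benjamini-Hochberg). Of the 8 receptors under the filter 2 were lower without overlap and 0 higher, and among the 6731 such rows above 0 in all hearts with a mean FPKM of at least 0.02, 5.47% were lower and 4.98% higher without overlap. Nr2c2 spans bases 92091390 to 92174294 of chromosome 6 (plus strand), and its exons overlap those of Mrps25 and Gm44249 on the opposite strand. Nr2c1 was at 0.802, 0.820 and 0.858 and at 0.847, 0.769 and 0.729.

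The remaining members belong to the liver and germ cell branches of the family. Nr0b2, the small heterodimer partner, which lacks a DNA-binding domain and represses other receptors, was at 5.54, 4.24 and 5.30 in WT hearts and at 5.41, 5.11 and 6.205 in SRAKO hearts (log2 difference 0.13, 95% interval -0.15 to 0.40). Its level was above 59.0% of the tested rows. Of the hepatocyte markers, Alb and Apoa1 were at 0.155 or less and at 0.117 or less and were listed at 0 in 3 and 2 of the 6 hearts, while Ahsg was at 12.1 to 32.3 and Cyp2e1 at 6.74 to 29.2, both named after their values were seen. Of 11 liver targets of these receptors 8 had a row and 0 passed the filter. Nr5a2, the bile acid regulator LRH-1, was at 0.0342, 0.0260 and 0.0474 and at 0.0728, 0.111 and 0.0295. Nr6a1, the germ cell nuclear factor, was at 0.0441, 0.168 and 0.149 and at 0.114, 0.153 and 0.102.

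Of 16 coactivators and corepressors of these receptors 14 were tested, 3 higher and 11 lower by sign with a median of -0.09, and limma called 0 after adjustment (0 at an unadjusted p under 0.05). Ppargc1a, the coactivator that drives mitochondrial genes through PPARs and estrogen-related receptors, was at 8.21, 11.8 and 9.34 in WT hearts and at 9.11, 7.85 and 10.4 in SRAKO hearts. Its relative Ppargc1b was at 2.08, 2.94 and 1.85 and at 1.86, 2.41 and 1.89. The corepressor Ncor1 was at 5.89, 4.80 and 4.72 and at 4.47, 4.00 and 4.72, and each SRAKO heart was below each WT heart, the nearest pair (WT2378 and SRAKO2372) being equal to the digits shown (log2 difference -0.18, 95% interval -0.44 to 0.07), where 3.76% of all rows were lower without overlap. Ncoa6 was the other of the 14 that was lower without overlap. Ncoa2, under the filter, was also lower without overlap at 33.0% of the WT mean. It was at 1.31, 1.63 and 0.541 in WT hearts and at 0.429, 0.304 and 0.414 in SRAKO hearts. Limma without the filter gave Ncoa2 an unadjusted p of 0.0229 and an adjusted p of 0.932. Of the rows under the filter, above 0 in all hearts with a mean FPKM of at least 0.02, 5.47% were lower without overlap. Ncoa6 and Ncoa2 are coactivators, named after their values were seen. Over the targets, coregulators and related receptors of all 12 lists, 124 rows were tested, 0 were called by limma after Benjamini-Hochberg adjustment, and 6 (4.84%) had an unadjusted p under 0.05, where the share over all rows was 3.46%.

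**Figure D5:**
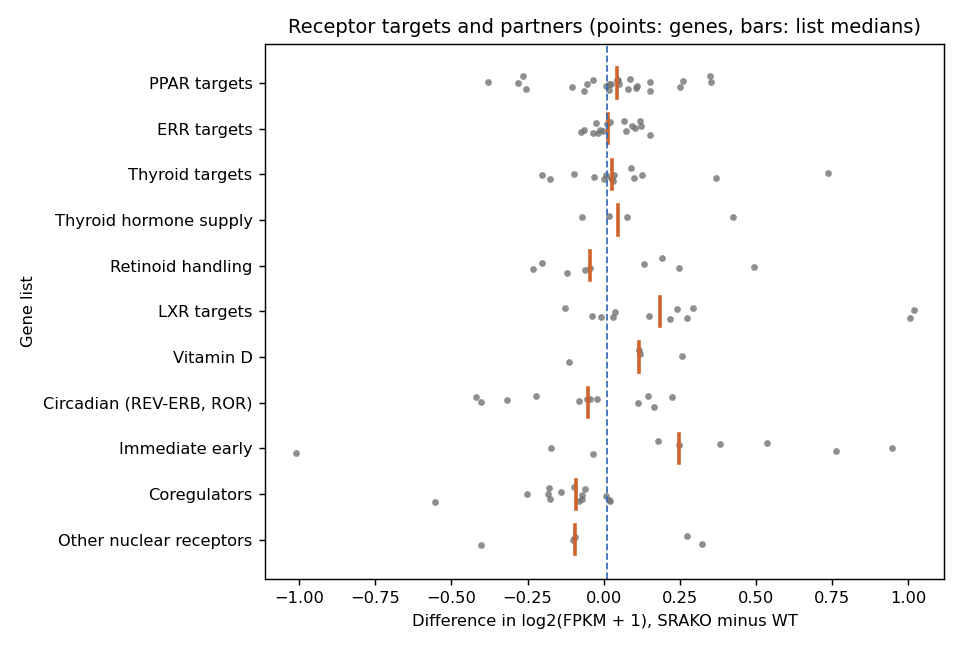
Difference in log2(FPKM + 1), SRAKO minus WT, of single genes (grey points) in the 11 lists with tested members, with list medians as orange bars and the median of all tested rows as the dashed line. List medians lie between -0.10 for other nuclear receptors and 0.25 for immediate early genes, and no point passed limma's test after adjustment.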

How the data were processed

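Heart RNA was sequenced from 3 WT and 3 SRAKO hearts, grouped by their labels. The authors deposited 1 table of FPKM per gene or assembled locus; the submitters' processing notes name cutadapt 1.9, HISAT2 2.0.4 and StringTie 1.3.4d. The notes name the human build hg38, whereas the identifiers are of mouse genes. Gene positions and exon overlaps came from GENCODE on GRCm38, matched by identifier, and promoters from RefSeq on GRCm38.p6. FPKM holds no counts and whole reads were not recovered, so depth per heart is unknown. The library's strand is not given in the sources used here.

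Rows that reached an FPKM of 1 in 3 or more of the 6 hearts were fitted with limma 3.58.1 in R 4.3.3 on log2(FPKM + 1), with genotype as the only term and a trended prior, and adjusted by Benjamini-Hochberg with a threshold of 0.05. Differences on that scale understate the change of low genes. Single quantities were compared by exact permutation with scipy 1.17.1. The fit was tested on simulated data. Alternatives were a pseudocount of 0.1, no filter, a minimum FPKM of 5, median-ratio rescaling, array weights, leaving out hearts, and summing the rows of a symbol. The members, lists, tests and motifs were chosen with earlier results of these data known. Named genes are all members, Sra1, the first 3 tested genes of each list in listed order (the first 2 where fewer were tested), and the first 2 genes of each marker list; of the marker lists, those with results beside the receptors are given. Some genes that this rule names are not reported here.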

Additional observations from a re-analysis of the deposited data

How the results depend on the processing

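No receptor was called by limma after adjustment in any of 12 alternatives (lowest adjusted p 0.272). Rows called over the whole table numbered 2, against 1 with a pseudocount of 0.1, 0 without a filter, 1 with a minimum FPKM of 5, 0 without both WT2368 and SRAKO2371, and 0 to 7 when each heart was left out. Receptors at an unadjusted p under 0.05 numbered 1 of 21, against 3 of 29 without a filter and 1 to 2 without each heart. Over all rows there were 353 of 10201 in the main fit, 919 of 25901 without a filter and 206 to 683 without each heart. With a minimum FPKM of 5, which leaves out Esrrb, there were 0 of 13 receptors and 114 of 4435 rows. The median difference of the receptors was 0.01, and -0.0176 to 0.0840 without each heart. Esrrb stayed lower, from -0.93 to -0.54. Signs were kept by 9 of 21 receptors in every alternative that tested them and changed for 12, whose differences were at most 0.13 in size. A minimum FPKM of 5 leaves 13 receptors, without Esrrb, Esrrg, Rara, Rarb, Rora, Nr2f2, Nr2f6 and Nr4a3. Signs changed with a pseudocount of 0.1 for Nr4a3 (0.000625), with median-ratio rescaling for Rxrg (-0.00171) and Nr1h2 (-0.0127), and with array weights for Esrra (-0.0454), Rarg (0.0139) and Nr4a3 (0.0218). Without both WT2368 and SRAKO2371 they changed for Esrra (-0.0889), Rxrg (-0.000938), Rarg (0.0592), Nr1h2 (-0.103), Nr2f6 (-0.0434) and Nr4a3 (0.0347). Leaving out 1 heart moved Esrrg to -0.10 (without SRAKO2371) and Nr0b2 to 0.03 (without WT2379). Leaving out each heart gave Esrra -0.0687 to 0.0682, Ppara -0.0918 to 0.1003, Ppard -0.0352 to 0.0840, Rxrg -0.0435 to 0.0909, Rarg -0.0903 to 0.0491, Nr1h2 -0.0874 to 0.114, Nr1h3 -0.0190 to 0.0763, Nr1d2 -0.261 to 0.0136, Nr2f2 -0.0913 to 0.15002, Nr2f6 -0.0595 to 0.136, Nr4a1 -0.451 to 0.112 and Nr4a3 -0.0595 to 0.0844. The cause was not tested. No paired analysis was possible because the titles of the 2 genotypes share no number. The number of hearts, 3 in each group, limits the precision.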

Other observations

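Among 19 related receptors outside the list 5 were tested, and limma called 0 after adjustment (0 at an unadjusted p under 0.05). The glucocorticoid receptor gene Nr3c1 was at an FPKM of 0.198 in WT2368 and 0.147 in SRAKO2371, against 2.97 to 3.64 in the other 4 hearts. Those were the hearts with the larger shares of ribosomal RNA, and its part in these values was not tested. Pparg, the fat cell PPAR, was at 4.48, 4.10 and 4.09 in WT hearts and at 4.09, 5.88 and 6.18 in SRAKO hearts, and the high hearts were those with the highest fat marker sums.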
